A study of Mus musculus with 6 samples.

Results

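Zfp genes are the mouse genes named for zinc finger proteins, most of them DNA-binding proteins with a row of C2H2 zinc fingers. All protein-coding genes whose symbol is Zfp plus a number were taken from the deposited expression table, without Zfp36, Zfp36l1 and Zfp36l2, which are RNA-binding proteins of another class. Of 364 such genes, 259 had a mean of at least 1 FPKM over the 6 libraries and are described here, among 12860 tested genes and 55335 genes in the table. FPKM is the number of fragments scaled to the length of the transcript and the depth of the library. The other 105 genes were below 1 FPKM and were not tested, and 9 of them were listed at 0 in all libraries. Just inside the limit were Zfp112 at a mean of 1.01 FPKM, Zfp438 at 1.01 FPKM and Zfp521 at 1.03 FPKM, and just outside were Zfp738 at 0.984 FPKM, Zfp820 at 0.983 FPKM and Zfp27 at 0.981 FPKM.

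A C2H2 finger is a short fold held by a zinc ion, and a row of fingers reads a DNA or RNA sequence. Many Zfp proteins also carry a KRAB box, which binds Trim28 (KAP1) and through it Setdb1, a histone methyltransferase, so that retroelements and imprinted regions are silenced. Others lack the box and act as activators, cofactors, RNA-binding proteins or ubiquitin ligases. Such KRAB genes lie in clusters of related copies that arose by duplication.

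Polyadenylated RNA was sequenced from sciatic nerve lysate of mice at postnatal day 14, when Schwann cells are myelinating axons. The icKO mice (n = 3 libraries) were RhoAfl/fl ChATCreERT2+, that is homozygous for a floxed allele of RhoA, a small GTPase of the cytoskeleton, with an inducible Cre made from the choline acetyltransferase gene. Control mice (n = 3 libraries), labelled flox, were RhoAfl/fl without the Cre, so both groups share the floxed allele. The driver is active in cholinergic neurons such as spinal motoneurons, whose cell bodies lie outside the nerve, and the labels give neither the induction schedule nor whether each library stands for an animal of its own.

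The libraries were estimated at 17200000 to 20600000 fragments. Rhoa was at 36.4, 33.6 and 33.2 FPKM in icKO nerves and at 36.5, 39.0 and 38.0 FPKM in control nerves, and this difference of -0.13 on the log2(FPKM + 1) scale did not pass the test (SE 0.08, adjusted p = 0.195 by limma with Benjamini-Hochberg adjustment). Summed markers of Schwann cells, the labelled tissue's main cell, reached 30930 to 35330 FPKM in icKO and 29350 to 31380 FPKM in control nerves. Skeletal muscle markers varied most, summing to 30.6, 45.6 and 1684 FPKM in icKO replicates 1 to 3 and to 1478, 297 and 403 FPKM in control replicates 1 to 3. Markers of fat cells summed to 112 to 192 FPKM in icKO and 499 to 596 FPKM in control nerves, and those of macrophages summed to 103 to 106 FPKM in icKO and 76.9 to 177 FPKM in control nerves. Markers of fibroblasts summed to 1682 to 1743 FPKM in icKO and 1354 to 2483 FPKM in control nerves; 3 of 12 rose, Apod among them, and 5 fell, Lum and Dpt among them. The sums of vessel markers came to 174 to 217 FPKM in icKO and 258.7 to 324 FPKM in control nerves. Of the 13 tested, Pecam1 rose, 5 fell and 7 did not pass. Acta2, one that fell, had means of 33.5 FPKM in icKO and 86.5 FPKM in control nerves and so weighs heavily in the sums. Of 5 tested neuron markers 4 rose, with Nefl at 2.12 and Nefh at 1.59 on the log2 scale, and Uchl1 fell, while Chat was at 0 in 5 libraries; all 12 summed to 44.3 to 57.1 FPKM in icKO and 41.8 to 46.9 FPKM in control nerves. Of 4 tested nuclear-retained RNAs, read as a sign of RNA quality, Malat1 and Meg3 rose by 1.06 and 0.79 and Snhg11 fell, and the list summed to 112 to 191 FPKM in icKO and 70.8 to 169.8 FPKM in control nerves. Control replicate 2 was female, with Xist at 46.1 FPKM, and the other 5 libraries were male. The part of these markers in the results below was not tested except where a value without the libraries concerned is given. P-values measure the spread between these samples, and in a bulk lysate fewer cells of a type and less RNA per cell cannot be told apart.

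Of the 259 Zfp genes, 48 rose and 38 fell in icKO nerves at an adjusted p under 0.05, and 173 did not pass. Rises numbered 29 without control replicate 2, and falls 24 without control replicate 3. Over all 12860 tested genes, rises went from 2670 to 1949 and falls from 2846 to 1912 in the same fits. The called share was 33.2%, where 42.9% of all tested genes were called. Rises made up 18.5% of the Zfp genes, against 20.8% of all tested genes, and falls 14.7%, against 22.1%. For 138 Zfp genes (53.3%) every icKO library lay on one side of every control library, against 57.2% of all tested genes. The median log2 difference was -0.001 over the Zfp genes and -0.012 over all tested genes, and the Zfp genes ranged from -1.32 (Zfp931) to 1.46 (Zfp956). A smaller share of the Zfp genes was called than of all tested genes, in each direction, when level is not considered. At 10 FPKM or more, 50% of Zfp genes and 49.8% of protein-coding genes were called. Of these Zfp genes 45% rose and 5% fell, against 23.8% and 25.9% of the protein-coding genes. The related Zbtb, Zscan and Zkscan genes together had a called share of 33.3%, near that of the Zfp genes.

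The Zfp genes were expressed at low levels, with a median of 2.90 FPKM, against 5.52 FPKM over all tested genes. No Zfp gene was at 0 in any library, 77 were under 2 FPKM, and 20 reached 10 FPKM. The balance of rises and falls differed with level. Of the 77 genes under 2 FPKM, 2 rose and 21 fell. Of the 117 genes between 2 and 5 FPKM, 22 rose and 13 fell, and of the 45 between 5 and 10 FPKM, 15 rose and 3 fell. At 10 FPKM or more, 9 of 20 rose and 1 fell. Among protein-coding genes of the same levels, falls also outnumbered rises under 2 FPKM, with 170 rises and 384 falls in 1632 genes. Between 2 and 5 FPKM the protein-coding genes held 545 rises and 736 falls in 3283 genes, and between 5 and 10 FPKM 633 rises and 542 falls in 2726 genes. At 10 FPKM or more they held 892 rises and 972 falls in 3746 genes. The 24 Zfp genes with a mean under 1 FPKM in one of the groups held 0 rises and 10 falls; genes at this level pass the filter largely through the group where they are higher, so their falls give no support to a direction. Without them the Zfp genes held 48 rises and 28 falls in 235 genes, a count added after the data were seen.

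**Figure D1:**
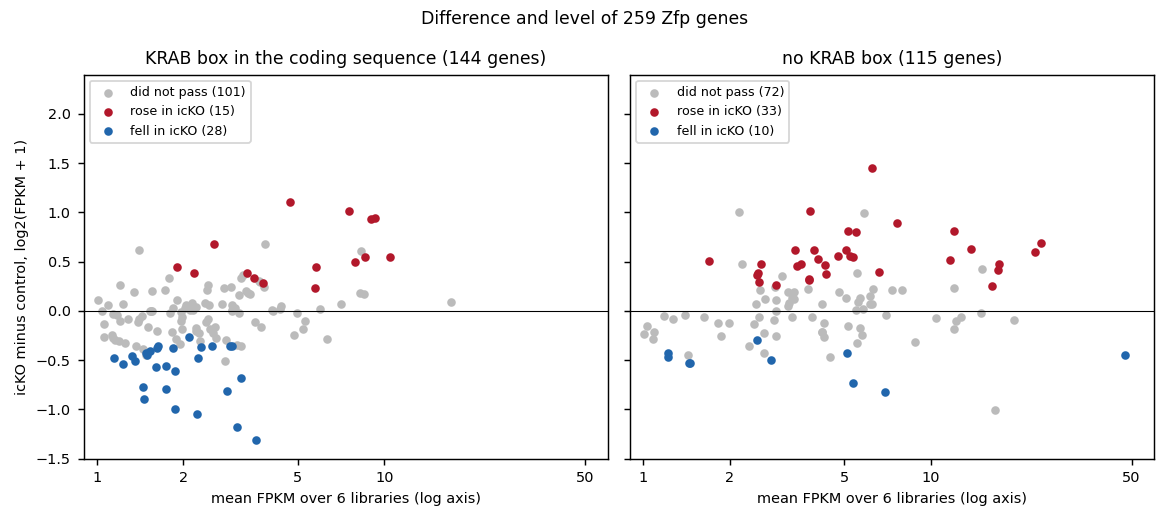
Log2 difference (icKO minus control, log2(FPKM + 1)) of 259 Zfp genes against their mean FPKM on a log axis, for 144 genes with a KRAB box (left) and 115 without (right). Red points rose, blue points fell and grey points did not pass; blue points gather at low levels in the left panel, and red points extend to higher levels in the right.

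The genes with the highest levels were led by Zfp706, which encodes a small zinc finger protein. Zfp706 was at 39.5, 38.2 and 42.1 FPKM in icKO nerves, against 55.3, 54.5 and 54.1 FPKM in control nerves. All 3 icKO libraries were below all control libraries, and Zfp706 fell by 0.44 on the log2 scale (SE 0.07, limma, Benjamini-Hochberg adjusted p = 0.00434). Zfp91, a ubiquitin ligase, was at 27.4, 36.3 and 27.2 FPKM in icKO nerves and at 17.7, 17.9 and 19.0 FPKM in control nerves. The groups did not overlap, and Zfp91 rose by 0.69 (SE 0.12, limma adjusted p = 0.00569). Zfp362 was at 29.4, 26.7 and 27.9 FPKM in icKO nerves and at 18.4, 17.8 and 18.5 FPKM in control nerves, a rise of 0.59 (SE 0.07, limma adjusted p = 0.0017). Its icKO libraries were all above its control libraries. Zfp598, a ubiquitin ligase that acts on collided ribosomes, was at 19.4, 18.3 and 23.3 FPKM in icKO nerves and at 14.7, 14.6 and 13.7 FPKM in control nerves, a rise of 0.47 (SE 0.10, limma adjusted p = 0.0119). Zfp651 was at 17.2, 18.9 and 19.5 FPKM in icKO nerves and at 15.8, 16.9 and 28.9 FPKM in control nerves. Control replicate 3 stood apart for this gene, and the difference did not pass (log2 -0.09, limma adjusted p = 0.756).

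Members with and without a KRAB box differed in which direction was more frequent. A KRAB box was found in the translated coding sequence of 144 Zfp genes and in none of the other 115. With the box, 15 genes rose (10.4%) and 28 fell (19.4%), and without it, 33 rose (28.7%) and 10 fell (8.7%), against 20.8% and 22.1% of all tested genes. The share of falls with the box was thus slightly below that of all tested genes. With one library left out, KRAB genes held 7 to 13 rises and 16 to 24 falls, and genes without the box 21 to 29 rises and 8 to 13 falls. Counts over all tested genes also dropped in most of these fits, from 2670 rises and 2846 falls to 1838 to 2558 rises and 1912 to 2900 falls. KRAB rises numbered 7 without control replicate 2 and 9 without control replicate 1, and KRAB falls 16 without control replicate 3 and 17 without control replicate 2. Rises without the box numbered 21 without control replicate 3. The median difference was -0.04 with the box and 0.08 without. Where both group means reached 1 FPKM, 15 of 128 KRAB genes rose and 21 fell, with a median of -0.005. On that footing 33 of 107 genes without the box rose and 7 fell, with a median of 0.12. Those counts were added after the data were seen. These are descriptions, and the split was not tested. The genes with a box were lower in level, with a median of 2.26 FPKM against 4.17 FPKM, and had 11.5 C2H2 fingers at the median against 7. Under 2 FPKM, 1 of 60 KRAB genes rose and 17 fell, and 1 of 17 genes without the box rose and 4 fell. Some of these had a mean under 1 FPKM in one of the groups; where both group means reached 1 FPKM, 1 of 44 KRAB genes rose and 10 fell, and 1 of 10 genes without the box rose and 1 fell. Between 2 and 5 FPKM, 6 of 67 KRAB genes rose and 11 fell, against 16 rises and 2 falls in 50 genes without the box. Between 5 and 10 FPKM, 7 of 15 KRAB genes rose and none fell, while 8 of 30 genes without the box rose and 3 fell. Among the 65 Zfp genes of at least 5 FPKM, refitted on their own level range, 7 KRAB genes rose and 0 fell, and 16 genes without the box rose and 4 fell. All 6888 genes of that range held 1696 rises and 1612 falls. With each library's values corrected for GC content and transcript length, the KRAB genes held 18 rises and 25 falls and the others 30 rises and 16 falls. The median FPKM of KRAB genes was 2.17, 1.95 and 2.23 in icKO replicates 1 to 3, against 2.36, 2.38 and 2.51 in control replicates 1 to 3. Genes without the box had medians of 4.30, 4.32 and 4.50 FPKM in icKO nerves, against 3.45, 3.56 and 3.51 FPKM in control nerves. In both classes the groups did not overlap on this median. These medians include the genes with a mean under 1 FPKM in one of the groups. Such genes pass the filter largely through the group where they are higher, so the lack of overlap gives no support to a direction. The summed FPKM of KRAB genes did overlap and lay slightly higher in icKO nerves, at 427, 431 and 440 FPKM, against 402, 421 and 438 FPKM in control nerves. Genes without the box summed to 689, 698 and 760 FPKM in icKO nerves, against 636, 631 and 654.6 FPKM in control nerves, with no overlap.

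The number of fingers was 36 at most, and 7 genes had no C2H2 pattern in the longest protein. Of the 49 genes with 1 to 5 patterns 18 rose (36.7%) and 8 fell (16.3%), where 20.8% of all tested genes rose and 22.1% fell. Of the 81 with 6 to 10 patterns 15 rose (18.5%) and 12 fell (14.8%). Of the 84 with 11 to 15 patterns 8 rose (9.52%) and 9 fell (10.7%), and of the 38 with 16 or more 5 rose (13.2%) and 8 fell (21.1%). Of the 7 with no pattern 2 rose (28.6%) and 1 fell (14.3%). The classes with 1 to 5 patterns and with none held a larger share of rises than all tested genes, and each class a smaller share of falls. Their median levels were 4.95, 2.95, 2.55 and 2.38 FPKM from few to many patterns, and 3.19 FPKM with none. The classes were not matched for level or KRAB box, and the part of either in these shares was not tested. Among related families, the Zbtb genes (32 tested), Zscan genes (7) and Zkscan genes (9) held 9 rises (18.8%) and 7 falls (14.6%) in 48 genes. Outside the 259 Zfp genes, 58 tested protein-coding genes with a KRAB box held 7 rises (12.1%) and 16 falls (27.6%), with a median of -0.20. That set was not kept apart from the families above or from Zfp genes with a letter in the symbol. Zfp genes with a letter after the number, 19 in all, held 4 rises (21.1%) and 3 falls (15.8%).

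The largest rises and falls were picked among called genes whose groups did not overlap, so their lack of overlap was set by that choice. The largest rise was that of Zfp956 (ENSMUSG00000045466), on chromosome 6. It was at 9.06, 11.9 and 8.08 FPKM in icKO nerves and at 3.25, 2.67 and 2.68 FPKM in control nerves, with no overlap. Its mean was 3.38 times the control mean, and it rose by 1.46 on the log2 scale (SE 0.14; adjusted p = 0.000885 by limma with Benjamini-Hochberg adjustment). Zfp956 overlaps Zfp783 on the same strand, and 3.16% of its 75-base windows occur in another gene. Zfp61, a KRAB gene on chromosome 7, was at 7.79, 7.73 and 5.01 FPKM in icKO nerves and at 2.49, 2.71 and 2.55 FPKM in control nerves (log2 difference 1.11, limma adjusted p = 0.00254). The KRAB gene Zfp383 reached 11.1, 11.4 and 8.81 FPKM in icKO nerves, against 4.64, 4.56 and 4.63 FPKM in control nerves (1.02, limma adjusted p = 0.000997). The control libraries of these 3 genes lay within a narrow range, below every icKO library.

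Zfp185 encodes a LIM domain protein that binds actin and has no C2H2 pattern, so it bears the name without being a C2H2 factor. It was at 4.13, 5.60 and 6.63 FPKM in icKO nerves and at 2.14, 2.06 and 2.24 FPKM in control nerves (log2 difference 1.02, SE 0.15, limma adjusted p = 0.00279). The gene is on the X chromosome, and the female library, control replicate 2, was at the level of the male control libraries. Zfp948 was at 11.9, 14.2 and 11.6 FPKM in icKO nerves, against 5.84, 6.27 and 5.97 FPKM in control nerves (0.95, limma adjusted p = 0.000892). Zfp777 was at 9.30, 12.9 and 14.2 FPKM in icKO nerves, against 5.55, 6.30 and 5.63 FPKM in control nerves (0.93, limma adjusted p = 0.00411). Both carry a KRAB box, and every icKO library was above every control library. Zfp639 was at 6.06, 7.63 and 6.71 FPKM in icKO nerves, against 5.05, 2.68 and 2.90 FPKM in control nerves, with control replicate 1 nearest to the icKO libraries (0.81, limma adjusted p = 0.0171). Its call was lost without control replicate 2, without control replicate 3 or without icKO replicate 2, where the adjusted p reached 0.0605. The remaining large rises, Zfp281, Zfp24 and Zfp326, are described with their roles below.

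The largest fall was that of Zfp931 (ENSMUSG00000078861), a KRAB gene on chromosome 2. It was at 2.17, 1.42 and 1.34 FPKM in icKO nerves and at 5.57, 4.92 and 6.09 FPKM in control nerves. The icKO mean was 0.297 times the control mean, and Zfp931 fell by 1.32 on the log2 scale (SE 0.14; adjusted p = 0.00112 by limma with Benjamini-Hochberg adjustment). Zfp950 was at 1.90, 1.17 and 1.43 FPKM in icKO nerves, against 4.37, 4.70 and 4.84 FPKM in control nerves (-1.18, limma adjusted p = 0.000969). Zfp719 was at 1.22, 0.707 and 1.41 FPKM in icKO nerves, against 2.68, 3.34 and 4.07 FPKM in control nerves (-1.05, limma adjusted p = 0.00422). These 3 KRAB genes were about 3 times lower in icKO nerves. Zfp882 was at 1.06, 0.415 and 0.726 FPKM in icKO nerves, against 2.01, 2.31 and 2.26 FPKM in control nerves (-0.90, limma adjusted p = 0.0046). Every icKO library of Zfp882 was below every control library. Zfp983 was at 1.26, 0.966 and 0.806 FPKM in icKO nerves, against 2.46, 2.44 and 2.51 FPKM in control nerves (-0.79, limma adjusted p = 0.00229). Zfp60 was at 1.48, 0.512 and 0.768 FPKM in icKO nerves, against 3.06, 1.73 and 3.73 FPKM in control nerves (-0.99, limma adjusted p = 0.0208). The groups of Zfp60 lay close, and its call held in 2 of 6 fits that left out one library and was lost without control replicate 1, control replicate 3, icKO replicate 2 or icKO replicate 3.

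Among the largest falls, 2 were of genes without a KRAB box. Zfp692 was at 5.13, 4.32 and 4.77 FPKM in icKO nerves, against 9.26, 9.60 and 8.56 FPKM in control nerves (-0.82, SE 0.09, limma adjusted p = 0.00109). Zfp524 was at 3.89, 3.92 and 3.55 FPKM in icKO nerves, against 7.64, 6.39 and 6.83 FPKM in control nerves (-0.73, limma adjusted p = 0.00156). The transcript of Zfp524 overlaps another annotated gene on its strand, which holds 44.8% of its windows, so its reads may be shared. Of the 259 Zfp genes, 199 share under 1% of their windows with another gene, and 32 share 10% or more.

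**Figure D2:**
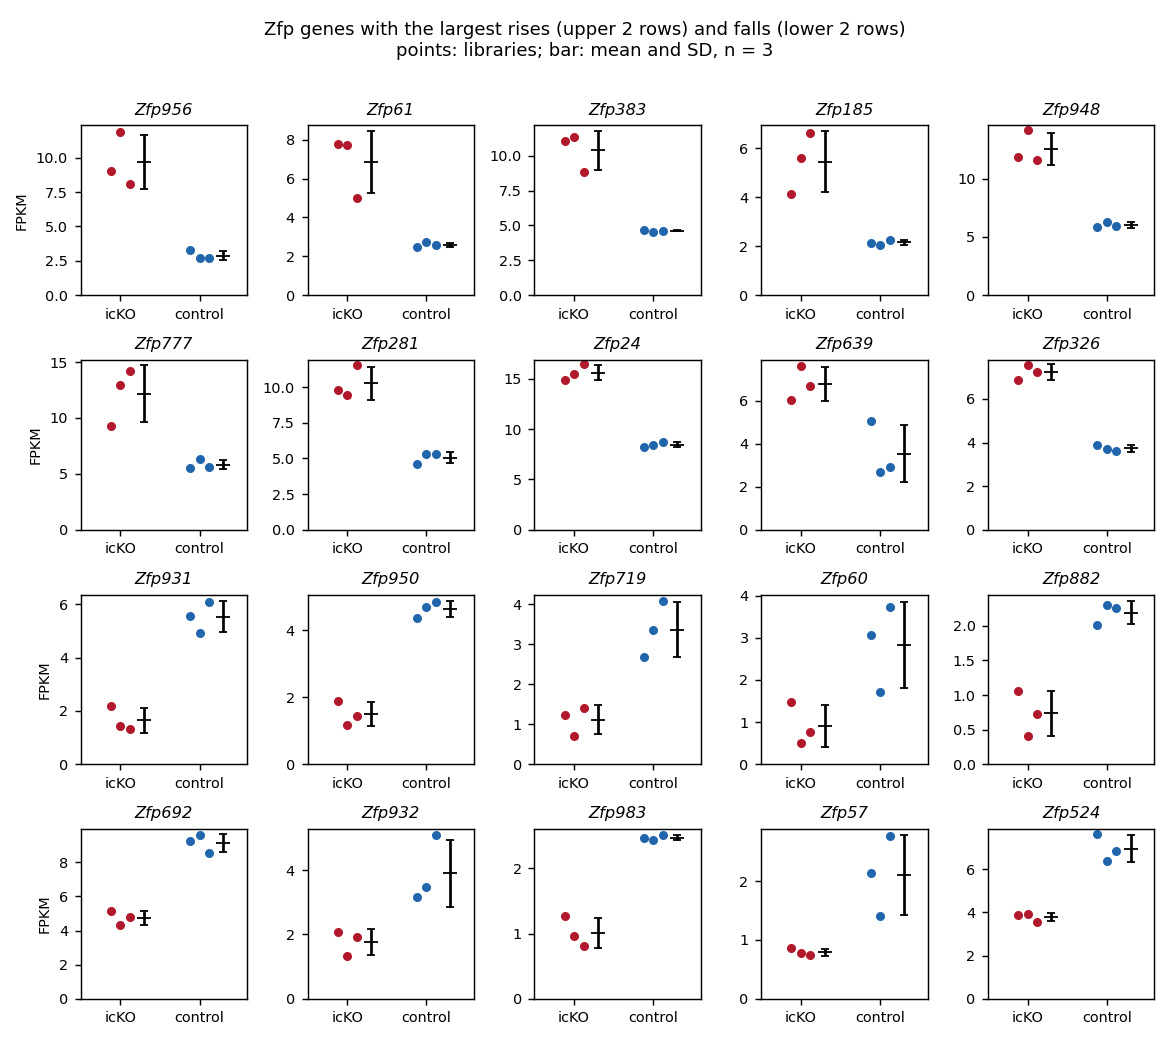
FPKM of the Zfp genes with the 10 largest rises (upper rows) and 10 largest falls (lower rows) in icKO nerves (left) and control nerves (right). Points are libraries and bars the mean and SD (n = 3), and each axis starts at 0. The genes were picked among calls whose groups did not overlap, so every panel lacks overlap by that choice.

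Regulators of cell differentiation were 9 tested genes, of which 2 rose and 1 fell (33.3% called, against 42.9% of all tested genes). Zfp24 is needed for oligodendrocytes to mature and myelinate in the mouse central nervous system. It was at 14.9, 15.5 and 16.5 FPKM in icKO nerves and at 8.19, 8.47 and 8.70 FPKM in control nerves, and rose by 0.81 (SE 0.07, limma, Benjamini-Hochberg adjusted p = 0.000752). Zfp516, a cofactor of the brown fat program, was at 6.58, 6.45 and 5.97 FPKM in icKO nerves and at 3.83, 4.57 and 3.03 FPKM in control nerves (0.62, limma adjusted p = 0.00923). Zfp423, which commits preadipocytes to the fat lineage, was at 1.06, 0.657 and 0.976 FPKM in icKO nerves and at 1.40, 1.65 and 1.59 FPKM in control nerves. It fell by 0.43 (limma adjusted p = 0.0269), and the call held in 3 of 6 fits that left out one library and was lost without control replicate 2, control replicate 3 or icKO replicate 2. Its icKO mean was under 1 FPKM, as were those of Zfp60 and Zfp882. Markers of fat cells were lower in all icKO libraries, and 9 of 10 tested fell; their part in the fall of Zfp423 was not tested.

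Zfp467, which favours fat over bone cells in mouse, was at 1.46, 1.45 and 3.42 FPKM in icKO nerves and at 3.52, 4.20 and 1.79 FPKM in control nerves. The groups overlapped, icKO replicate 3 and control replicate 3 being apart from the others of their groups, and the difference did not pass (limma adjusted p = 0.298). Zfp521, which opposes Zfp423 in fat cell commitment, was at 0.951, 0.792 and 1.02 FPKM in icKO nerves and at 0.943, 1.159 and 1.34 FPKM in control nerves (-0.16, limma adjusted p = 0.303). Zfp536, which holds back neuronal differentiation, differed by -0.06 (limma adjusted p = 0.604). Zfp219, a partner of Sox9 in cartilage, was at 14.8, 13.3 and 16.5 FPKM in icKO nerves, against 14.8, 16.7 and 13.7 FPKM in control nerves (limma adjusted p = 0.914). Zfp488, a regulator of oligodendrocytes, was listed at 0 in all 6 libraries.

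Of 9 tested genes of transcription and chromatin, 4 rose and none fell (44.4% called, near the 42.9% of all tested genes). Zfp281, a regulator of pluripotency genes, was at 9.78, 9.46 and 11.6 FPKM in icKO nerves and at 4.58, 5.31 and 5.30 FPKM in control nerves, and rose by 0.89 (SE 0.10, limma, Benjamini-Hochberg adjusted p = 0.00129). Zfp217, whose human counterpart is amplified in breast cancer, was at 3.14, 2.85 and 3.43 FPKM in icKO nerves and at 1.62, 2.23 and 2.12 FPKM in control nerves (0.47, limma adjusted p = 0.0159). Zfp318, which in mouse B cells controls the choice of immunoglobulin transcripts, was at 4.20, 4.68 and 3.93 FPKM in icKO nerves and at 2.74, 2.83 and 2.82 FPKM in control nerves (0.47, limma adjusted p = 0.00562). Zfp292 was at 4.36, 4.44 and 4.08 FPKM in icKO nerves and at 3.19, 3.17 and 3.35 FPKM in control nerves (0.32, limma adjusted p = 0.0143). In these 4 genes every icKO library was above every control library. The call of Zfp292 was lost without control replicate 2 (limma adjusted p = 0.0591), and that of Zfp217 without both muscle-rich libraries, control replicate 1 and icKO replicate 3 (limma adjusted p = 0.0601). Zfp335 (0.21, limma adjusted p = 0.0762) and Zfp462 (-0.21, limma adjusted p = 0.0678) did not pass, and neither did Zfp143, which binds promoters, at 0.11 nor Zfp384 at 0.07. Zfp148 was at 6.84, 2.30 and 1.96 FPKM in icKO nerves and at 2.50, 6.55 and 6.66 FPKM in control nerves, so that 1 library of each group had the level of the other group (limma adjusted p = 0.434). Whether such steps are levels of the gene or come from how reads were assigned to transcripts was not tested. Zfp827 was below the limit, at 0.044 to 0.0685 FPKM in icKO and 0.078 to 0.171 FPKM in control nerves.

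Of 8 tested genes of RNA and protein control, 5 rose and none fell, among them Zfp91 and Zfp598 above (62.5% called, against 42.9% of all tested genes). Zfp622 and Zfp830 are on this list but outside the naming rule. Zfp326, a subunit of a complex that couples splicing to transcription, was at 6.85, 7.58 and 7.24 FPKM in icKO nerves and at 3.91, 3.69 and 3.60 FPKM in control nerves (0.80, SE 0.08, limma, Benjamini-Hochberg adjusted p = 0.000811). Zfp622, a factor of ribosome maturation in human cells, was at 4.18, 4.30 and 4.46 FPKM in icKO nerves and at 2.73, 2.31 and 2.35 FPKM in control nerves (0.62, limma adjusted p = 0.00215). Both were higher in every icKO library than in any control library. Zfp207, a spindle protein, was at 17.2, 17.0 and 19.2 FPKM in icKO nerves and at 14.0, 15.2 and 15.2 FPKM in control nerves (0.25, limma adjusted p = 0.0456), a call that was lost in each of the 6 fits that left out one library. Zfp106, an RNA-binding protein whose loss in mice leads to degeneration of motoneurons and muscle, was at 11.5, 12.8 and 13.2 FPKM in icKO nerves and at 12.6, 13.3 and 13.2 FPKM in control nerves, with overlapping groups (-0.06, limma adjusted p = 0.583). Zfp638 (0.08, limma adjusted p = 0.419) and the splicing factor Zfp830 (-0.17, limma adjusted p = 0.272) did not pass.

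**Figure D3:**
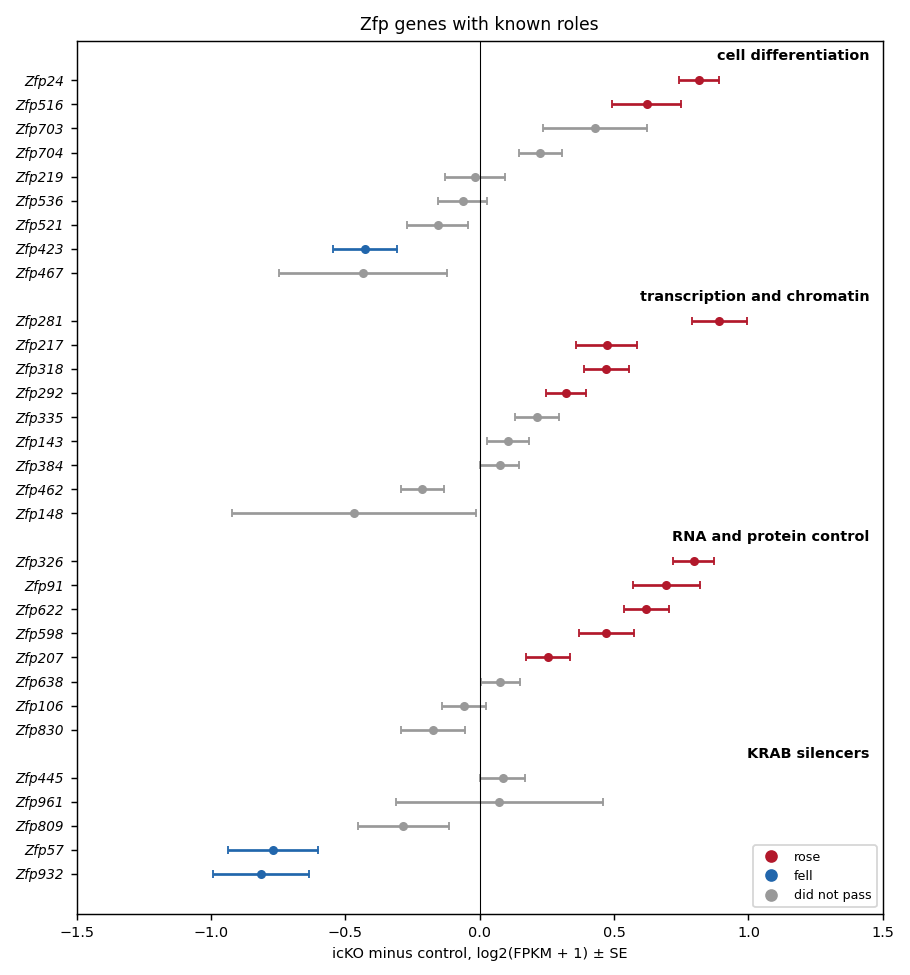
Log2 difference (icKO minus control, log2(FPKM + 1)) with its SE for Zfp genes grouped by known role. Red genes rose, blue genes fell and grey genes did not pass; in the lists of transcription and chromatin and of RNA and protein control all called genes rose.

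Of 5 tested KRAB silencers of imprints and retroelements, 2 fell and none rose (40% called, near the 42.9% of all tested genes). Zfp57, which keeps methylation at imprinted regions, was at 0.859, 0.778 and 0.741 FPKM in icKO nerves and at 2.14, 1.41 and 2.76 FPKM in control nerves, and fell by 0.77 (SE 0.17, limma, Benjamini-Hochberg adjusted p = 0.0117). Without control replicate 1 and icKO replicate 3, the libraries rich in muscle transcripts, the adjusted p of Zfp57 was 0.0651. Its icKO mean was 0.792 FPKM, so it passed the limit through the control group and its fall adds no support to a direction of the list. Zfp932, which binds endogenous retroviruses, was at 2.07, 1.31 and 1.92 FPKM in icKO nerves and at 3.15, 3.46 and 5.08 FPKM in control nerves (-0.81, limma adjusted p = 0.0116), and shares 32.6% of its windows with other genes. Both lay lower in every icKO library than in any control library. Zfp445, which protects imprints together with Zfp57, was at 16.6, 19.3 and 16.9 FPKM in icKO nerves and at 16.1, 16.7 and 16.6 FPKM in control nerves (0.09, limma adjusted p = 0.443). Zfp809, which silences murine leukemia virus, was at 4.69, 7.58 and 4.68 FPKM in icKO nerves and at 6.54, 7.37 and 6.93 FPKM in control nerves (-0.28, limma adjusted p = 0.215), with icKO replicate 2 at the level of control. Zfp568 was below the limit, at 0.463, 0.335 and 2.11 FPKM in icKO nerves and at 0.849, 0.837 and 0.616 FPKM in control nerves.

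The machinery that KRAB proteins recruit was read beside them. Of 18 tested genes, 3 rose and 1 fell (22.2% called, against 42.9% of all tested genes). Trim28, the shared partner of KRAB boxes, was at 20.2, 23.1 and 24.7 FPKM in icKO nerves and at 19.1, 20.9 and 19.9 FPKM in control nerves (0.17, limma, Benjamini-Hochberg adjusted p = 0.19). Setdb1 differed by -0.02 (limma adjusted p = 0.866). Morc2a, an ATPase of the silencing complex HUSH, was at 9.21, 11.8 and 10.1 FPKM in icKO nerves and at 6.51, 6.48 and 6.88 FPKM in control nerves (0.57, limma adjusted p = 0.00545). The chromatin remodeller Chd4 and its partner Mta2 rose by 0.26 and 0.29 (limma adjusted p = 0.0426 and 0.0166), and the heterochromatin protein gene Cbx5 fell by 0.29 (limma adjusted p = 0.0248). With one library left out, Morc2a stayed past the threshold in all 6 fits. Chd4 passed only without icKO replicate 2, Mta2 was lost without control replicate 2 or control replicate 3 (limma adjusted p = 0.0606 and 0.0646), and Cbx5 was lost without any one control library or icKO replicate 1. Uhrf1, which brings the DNA methyltransferase to replicated DNA, was below the limit, at 0.156, 0.143 and 0.157 FPKM in icKO nerves and at 0.761, 1.347 and 1.22 FPKM in control nerves.

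Zfp genes lie in groups of neighbours. Of the 259 genes, 106 fell into 14 clusters of at least 4 with gaps of at most 500 kb. Both directions occurred in 4 clusters, rises without falls in 4, falls without rises in 5 and no call in 1. Of all tested genes 20.8% rose and 22.1% fell, and whether any cluster differs from these shares was not tested. All 8 genes of the chromosome 13 cluster from Zfp595 to Zfp273, each with a KRAB box, were lower in icKO nerves, and 3 of them fell. Of all 144 KRAB genes, 81 were lower in icKO nerves, called or not. Windows shared with other genes ranged from 0.117% (Zfp748) to 49.6% (Zfp58) in this cluster. Zfp273 (12.8%) and Zfp85 (14.2%) share windows with each other, so that reads may be shared between neighbours. The genes of this cluster that fell, outside the naming rule and named after their values were seen, were Zfp429, Zfp65 and Zfp273, at -0.48, -0.57 and -0.54 (limma adjusted p = 0.0209, 0.0111 and 0.0209). Zfp65 was called in all 6 fits that left out one library, Zfp273 was lost without control replicate 2 or control replicate 3, and Zfp429 was lost without any one control library or icKO replicate 1. In the chromosome 17 cluster of 19 genes from Zfp160 to Zfp13, 5 rose and 2 fell. Zfp948 and its neighbour Zfp983 lie next to each other there and differed by 0.95 and -0.79. In the chromosome 7 cluster of 10 genes from Zfp553 to Zfp646, 5 rose and none fell, and of the 19 other tested genes between them 5 rose and 2 fell.

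**Figure D4:**
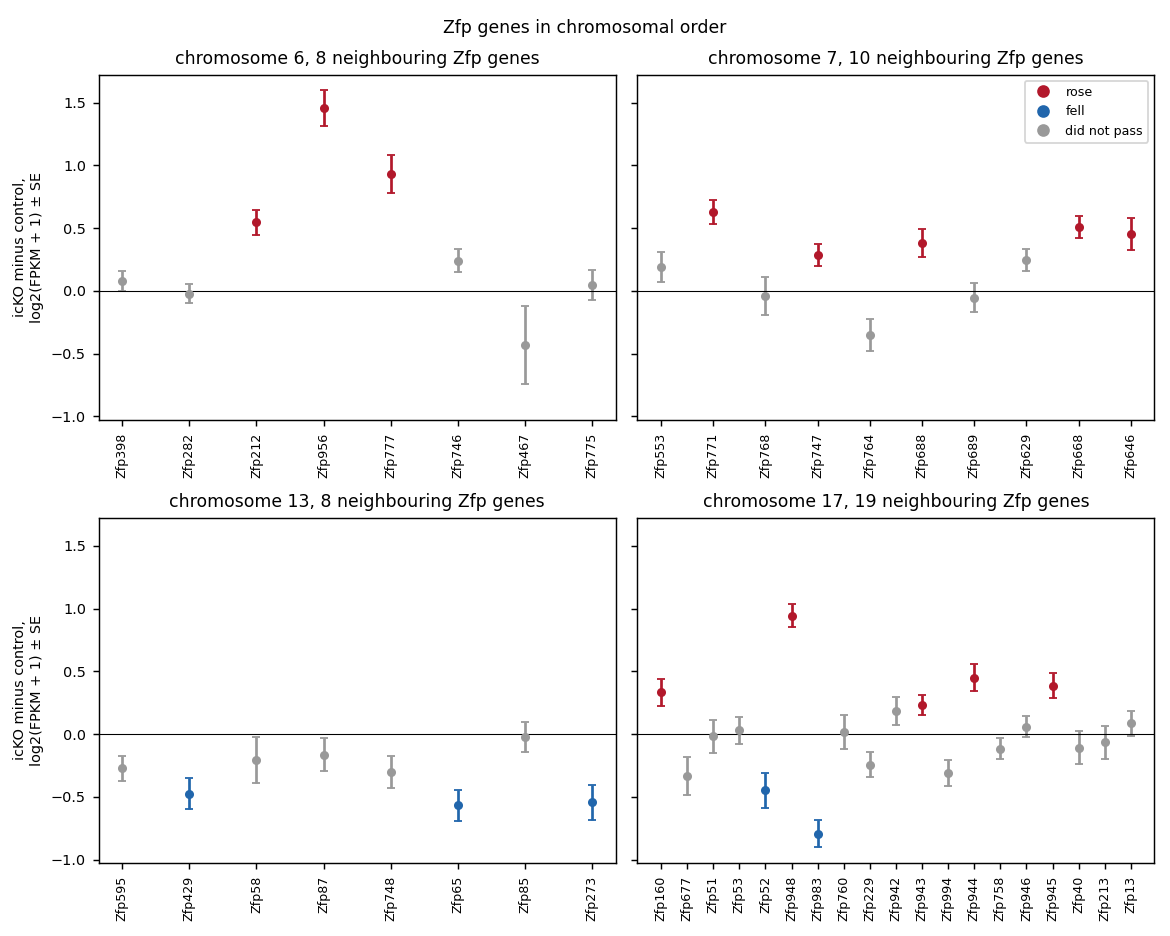
Log2 difference (icKO minus control, log2(FPKM + 1)) with its SE for Zfp genes in chromosomal order, in clusters on chromosomes 6, 7, 13 and 17. Red genes rose, blue genes fell and grey genes did not pass; all 8 genes of chromosome 13 lie below 0, and the chromosome 17 cluster holds rises beside falls.

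In the chromosome 6 cluster of 8 genes, the neighbours Zfp212, Zfp956 and Zfp777 rose and the other 5 did not pass. Zfp212, a KRAB gene outside the naming rule and singled out after its values were seen, was at 9.09, 11.6 and 10.5 FPKM in icKO nerves and at 6.58, 6.74 and 7.02 FPKM in control nerves (0.55, limma, Benjamini-Hochberg adjusted p = 0.00585). Of 9 other tested genes between the ends of the cluster, 5 rose and 1 fell, where 20.8% of all tested genes rose and 22.1% fell. The promoters of the neighbours are shown because the genes rose together, each from RefSeq (GRCm38.p6), 250 bases before to 50 after the start, 5′ to 3′ on the gene's strand, with CG dinucleotides in capitals. CG occurs 14 times in Zfp212 (chr6:47920318-47920617, plus strand), 16 times in Zfp956 (chr6:47953140-47953439, plus strand) and 51 times in Zfp777 (chr6:48047745-48048044, minus strand).
Zfp212: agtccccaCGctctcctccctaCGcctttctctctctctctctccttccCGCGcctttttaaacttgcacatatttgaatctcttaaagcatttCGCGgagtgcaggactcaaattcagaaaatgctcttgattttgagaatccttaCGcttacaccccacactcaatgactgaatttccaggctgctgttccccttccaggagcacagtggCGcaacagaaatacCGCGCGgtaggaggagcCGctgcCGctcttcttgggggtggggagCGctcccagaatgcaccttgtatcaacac
Zfp956: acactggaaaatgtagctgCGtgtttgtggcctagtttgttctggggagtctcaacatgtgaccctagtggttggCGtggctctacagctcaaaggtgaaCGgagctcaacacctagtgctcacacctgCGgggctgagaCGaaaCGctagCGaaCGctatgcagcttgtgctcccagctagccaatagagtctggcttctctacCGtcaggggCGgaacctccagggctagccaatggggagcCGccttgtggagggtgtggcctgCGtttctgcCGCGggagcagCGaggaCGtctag
Zfp777: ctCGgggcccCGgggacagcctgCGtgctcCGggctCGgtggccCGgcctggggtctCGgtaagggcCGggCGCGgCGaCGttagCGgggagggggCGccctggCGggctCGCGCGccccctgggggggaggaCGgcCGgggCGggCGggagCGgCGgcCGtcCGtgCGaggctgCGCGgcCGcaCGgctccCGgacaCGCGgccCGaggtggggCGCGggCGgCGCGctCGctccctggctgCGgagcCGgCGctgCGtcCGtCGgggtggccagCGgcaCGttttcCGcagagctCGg
Zfp777 held the most CG of the 3 promoters, and all 3 genes rose.

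On chromosome 2, close paralogs took different directions. Zfp970 (outside the naming rule, and chosen after its values were seen, as was Zfp971) was at 13.2, 11.5 and 12.8 FPKM in icKO nerves and at 6.95, 8.0 and 10.1 FPKM in control nerves, and rose by 0.54 (limma, Benjamini-Hochberg adjusted p = 0.0181). The call of Zfp970 was lost without control replicate 2 or icKO replicate 1, and without the libraries rich in muscle. Zfp971 was at 2.38, 2.44 and 2.41 FPKM in icKO nerves and at 3.17, 3.15 and 3.82 FPKM in control nerves, and fell by 0.36 (limma adjusted p = 0.0197), a call lost without control replicate 3 and without the libraries rich in muscle. With Zfp931, 1 paralog rose and 2 fell. Zfp970 shares 33.2% of its windows with other genes, Zfp971 21.3% and Zfp931 9.61%. The genes sharing most were Gm14440 and Gm14288 for Zfp970, Gm14435 and Gm14288 for Zfp971, and Gm14418 and Gm14322 for Zfp931. Reads may have been exchanged with such genes, and no paralog was a main match of another. Their promoters are nearly the same: Zfp931 (chr2:178078376-178078675, minus strand) matched Zfp970 (chr2:177464492-177464791, plus strand) at 249 of 261 aligned bases (95.4%), and Zfp971 (chr2:178023034-178023333, plus strand) at 284 of 291 (97.6%). The sequences are from RefSeq (GRCm38.p6), 5′ to 3′, with capitals in Zfp931 and Zfp971 where the base differs from Zfp970.
Zfp970: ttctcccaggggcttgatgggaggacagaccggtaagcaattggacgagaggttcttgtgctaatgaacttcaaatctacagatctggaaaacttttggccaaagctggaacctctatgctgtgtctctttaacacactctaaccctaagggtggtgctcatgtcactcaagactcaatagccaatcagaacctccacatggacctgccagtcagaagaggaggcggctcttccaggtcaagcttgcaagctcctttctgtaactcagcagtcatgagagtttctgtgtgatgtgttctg
Zfp931: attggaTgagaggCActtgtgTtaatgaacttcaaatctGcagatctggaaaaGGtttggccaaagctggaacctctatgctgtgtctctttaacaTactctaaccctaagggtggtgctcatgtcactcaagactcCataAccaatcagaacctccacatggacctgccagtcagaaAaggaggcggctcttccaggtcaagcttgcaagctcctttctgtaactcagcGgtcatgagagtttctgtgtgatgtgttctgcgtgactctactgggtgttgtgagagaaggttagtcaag
Zfp971: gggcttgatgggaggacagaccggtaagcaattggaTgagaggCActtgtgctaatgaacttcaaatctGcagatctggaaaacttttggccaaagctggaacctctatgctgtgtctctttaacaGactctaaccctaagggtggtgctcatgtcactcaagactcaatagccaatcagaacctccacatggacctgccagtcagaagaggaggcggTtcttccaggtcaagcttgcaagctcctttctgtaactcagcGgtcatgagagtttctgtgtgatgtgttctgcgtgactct
These windows differ from that of Zfp970, which rose, at 12 aligned positions in Zfp931 and 7 in Zfp971, which both fell.

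RefSeq promoters were found for 212 of the 259 Zfp genes. The median number of CG in 300 bases was 16, against 7 over all 32851 promoters. It was 20 in 39 genes that rose, 10.5 in 30 that fell and 15 in 143 that did not pass, and 12 with a KRAB box against 20 without. The ETS motif CCGGAAG, searched on both strands, occurred in 23.6% of Zfp promoters and 8.86% of all promoters. The SP motif GGGCGGG occurred in 35.8% of Zfp promoters and 25.6% of all promoters, and the TATA motif TATAAA in 5.66% of Zfp promoters and 13.6% of all promoters; both were searched on both strands. The set of all promoters was not limited to genes of at least 1 FPKM, as the Zfp genes were, and a set matched for level was not tested. A match describes the letters in these windows and is not evidence of binding.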

How the data were processed

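Libraries of sciatic nerve lysate, 3 icKO and 3 control, were compared. The authors deposited FPKM values per gene, with no counts. The submitters' processing notes name GRCm39 as build and list the tools StringTie 1.3.1c, STAR, FastQC 0.11.2 and DESeq2 1.16.1, without saying which made the values. For annotation, strand and multiply matching reads, settings were not given in the sources used here. Depth was estimated from the smallest FPKM steps. GENCODE M21 (GRCm38, another build) gave symbols, lengths, GC content and gene order for 55154 IDs, and 181 were unmatched.

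Tests used limma 3.58.1 (R 4.3.3) on log2(FPKM + 1), two-sided with a variance trend, for the 12860 genes averaging at least 1 FPKM. P-values were adjusted by Benjamini-Hochberg over all of them and called under 0.05. This scale understates changes of low genes. KRAB boxes were found in coding sequences translated from GENCODE M21, with HMMER 3.4 (E under 0.001, a profile of 14 seed windows), in place of the RefSeq protein table first planned. Sharing was measured in 75-base windows of the longest transcript. The fit was tested on simulated data. Named are 28 genes of known role, the 10 largest rises and 10 largest falls among calls without overlap of the groups, the 5 highest levels and the genes beside the limit; other names are said to be outside this rule or are called genes of a list. The members, lists and tests were chosen with earlier results of these data known. Replicate numbers did not pair the libraries (correlations of same-numbered deviations -0.103, 0.0434 and -0.0546). Other pseudocounts (0.1, 0.01), filters (none, 5 FPKM), scalings, limma settings, a replicate block, an adjusted p of 0.1, a correction for GC and length, a muscle covariate and fits without single libraries or the muscle-rich pair were tried.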

Additional observations from a re-analysis of the deposited data

How the results depend on the processing

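No called Zfp gene changed sign under any alternative in which it was fitted. Of the 48 rises, 27 were called in all 6 fits that left out one library and 25 under every alternative, and of the 38 falls 21 and 19. Rises numbered 29 to 42 and falls 24 to 37 when one library was left out, with 29 rises without control replicate 2 and 24 falls without control replicate 3. Over all tested genes, rises numbered 1949 without control replicate 2, against 2670 with all libraries. Falls over all tested genes numbered 1912 without control replicate 3, against 2846. With one library left out, these ranged from 1838 to 2558 rises and 1912 to 2900 falls. In these fits the median over the Zfp genes was -0.019 to 0.017, that of KRAB genes -0.086 to -0.019, calls among the KAP1 silencing machinery 1 to 5, and other zinc finger families 11 to 19. The differences of Zfp219 (-0.092 to 0.058) and Zfp651 (-0.246 to 0.171), neither of which passed the test, changed sign: Zfp219 was at 0.055 without control replicate 2 and 0.058 without icKO replicate 2, and Zfp651 at 0.171 without control replicate 3. A muscle covariate also reversed Zfp219 (0.035). At a limit of 5 FPKM, all 6888 genes held 1696 rises and 1612 falls. This limit left 23 rises, 4 falls and 5 calls in the other families, with a median of 0.179 over the Zfp genes and 0.233 over KRAB genes. Without a filter these medians were -0.042 and -0.094. The KRAB median was -0.080 and -0.090 with pseudocounts of 0.1 and 0.01, 0.002 after quantile scaling and -0.077 without the libraries richest in muscle. At an adjusted p of 0.1, 58 Zfp genes fell and 7 KAP1 genes were called. KAP1 calls numbered 1 with the replicate block and 2 with the muscle covariate or without the muscle-rich libraries. Fitting the replicate number as a block, although the numbers did not pair the libraries, gave 40 rises and 30 falls. Over all tested genes the block gave 2272 rises and 2324 falls. Where the cause of a change is not fixed by the setting, it was not tested. Low levels limit the precision: at 1 FPKM a Zfp gene of median length rests on 62.3 to 74.6 estimated fragments per library. Leaving out genes with a mean under 1 FPKM in either group, a choice made after seeing the data, left 48 rises and 28 falls.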

Other observations

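Some Zfp genes varied as widely within a group as between groups. In 12 of the 259 Zfp genes (4.63%) the highest library of a group was at least 4 times the lowest, against 2.5% of protein-coding genes. The sets were not matched for level, with a median of 2.9 FPKM for Zfp genes and 6.03 FPKM for protein-coding genes. None of the 12 passed the test, which largely follows from the choice, as a wide spread within a group raises the SE. The genes given here were picked after their values were seen. Zfp664 was at 5.91, 6.47 and 24.9 FPKM in icKO nerves, against 20.4, 20.7 and 22.1 FPKM in control nerves, so that icKO replicate 3 had the control level. Zfp62 was at 4.86, 4.70 and 0.648 FPKM in icKO nerves, against 0.833, 0.834 and 1.04 FPKM in control nerves, again with icKO replicate 3 at the control level. Zfp46 was at 2.28, 14.5 and 16.8 FPKM in icKO nerves, against 5.23, 5.84 and 5.05 FPKM in control nerves. Zfp422 was at 8.56, 6.85 and 7.24 FPKM in icKO nerves, against 5.87, 0.61 and 6.05 FPKM in control nerves, with control replicate 2 alone low. In Zfp664, Zfp62 and Zfp46 no window of 75 bases was shared with another gene, and no exon of another gene overlapped on either strand in the annotation used. Whether these steps are levels of the genes or come from the assignment of reads to transcripts in the authors' processing was not tested.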
